A study of Mus musculus with 16 samples.

Results

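The EGF family ligands and the ErbB receptors were read in sorted cells of mouse tail epidermis, with the hedgehog pathway switched on by SmoM2, a constitutively active form of the signal transducer Smoothened that is used to model basal cell carcinoma. The set was defined by gene name: the receptors Egfr, Erbb2 and Erbb3 and the ligands Areg, Ereg, Btc, Hbegf, Tgfa, Epgn and Nrg1, through every probe set whose array annotation gives that gene alone. Of these 10 genes, 9 had such probe sets, out of 18194 genes on the array. Areg, which encodes amphiregulin, had none and is not analysed here. The 9 genes had 20 probe sets, of which 7 read Egfr, 3 read Tgfa, 2 each read Btc, Erbb3 and Hbegf, and 1 each read Erbb2, Ereg, Epgn and Nrg1.

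All values are log2 array signals as deposited, so a difference of 1 is a 2-fold change. Each gene is represented by the probe set that was brightest on average across the 16 arrays, and signals of different genes were not set against each other, since probes differ in brightness. Basal cells of the interfollicular epidermis (IFE), the epidermis between hair follicles, came from K14CREER/Rosa-SmoM2-YFP mice of mixed strain, in which the keratin 14 promoter drives a Cre recombinase that tamoxifen activates. Untreated mice of that genotype gave the control (n = 3). SmoM2-positive cells were taken 3 days after tamoxifen from 1 sample, after 1 week and after 4 weeks from 3 samples each, and after 10 weeks from 2 samples. A further group carried b-cat flox/flox alleles besides and was taken 4 weeks after tamoxifen (β-catenin loss, n = 2). Bulge and outer root sheath cells of the hair follicle came from K19CREERT2/Rosa-SmoM2-YFP mice, whose Cre is driven by the keratin 19 promoter, untreated (n = 1) and 4 weeks after tamoxifen (n = 1). The controls were littermates per the series' design text. They carried the same transgenes but had no tamoxifen, so SmoM2, tamoxifen and time since it cannot be told apart, and β-catenin was lost only together with SmoM2. Ages are not in the labels, nor is it stated if each replicate is a mouse of its own, and p-values therefore describe how far these samples spread, which may be technical.

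The labelled cell types were checked against markers. Krt14, the keratin of basal cells, lay between 12.83 and 14.21 in all 16 arrays, while Cd34, a marker of the mouse bulge, stood at 9.72 in the bulge control and 6.83 in the bulge SmoM2 array against 3.65 to 5.63 in the IFE arrays. The mean of all 8 bulge and outer root sheath genes, with Cd34 among them, was 10.57 and 10.32 in the bulge arrays and 8.13 to 8.56 in the IFE controls, but it reached 10.29 at 4 weeks and 10.10 at 10 weeks in IFE SmoM2 arrays, so the whole list hardly set the bulge arrays apart from those. The hedgehog target Gli1 had 5.73, 5.58 and 5.30 in the 3 controls, and it rose by 4.91 at 4 weeks (limma, adjusted p = 0.00587). For the untreated bulge array, the source label speaks of cells with SmoM2, although its title gives no tamoxifen. Its Gli1 signal of 9.89 and its Ptch1 signal of 12.57 were close to the 9.96 and 12.78 of the bulge SmoM2 array. It was used as the title gives it, and the bulge SmoM2 array was also set against the IFE SmoM2 arrays. Ctnnb1, the floxed gene, had 12.76 and 12.93 with β-catenin loss and 13.21 to 13.65 with SmoM2 alone at 4 weeks, a difference that did not pass (adjusted p = 0.215). The sources used here do not place its probe set against the deleted exons. Of the 2 β-catenin loss arrays, replicate 1 had the lower hedgehog target signals, with Gli1 at 7.22 and Ptch1 at 10.71 against 9.56 and 12.50 in replicate 2.

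ErbB receptors are receptor tyrosine kinases that pair up when a ligand binds and feed the Ras-ERK and PI3K pathways. Erbb2 binds no known ligand of its own and Erbb3 has an impaired kinase, so both act mainly in pairs with other receptors. In epidermis, Egfr in basal cells drives proliferation and holds back differentiation, and most of its ligands are made as membrane proteins that are cut free by ADAM proteases. Epgn, Ereg, Areg and Btc lie next to each other as coding genes on mouse chromosome 5 in the GRCm38.p6 annotation.

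To show the start regions of the ligands whose signals are described most closely below, the 250 bases before the transcription start are printed for Epgn and Tgfa from RefSeq promoter windows. They run 5′ to 3′ on the plus strand of GRCm38.p6, at chr5:91027267-91027516 for Epgn and chr6:86194972-86195221 for Tgfa, all in lower case because no searched motif was found to mark.
Epgn: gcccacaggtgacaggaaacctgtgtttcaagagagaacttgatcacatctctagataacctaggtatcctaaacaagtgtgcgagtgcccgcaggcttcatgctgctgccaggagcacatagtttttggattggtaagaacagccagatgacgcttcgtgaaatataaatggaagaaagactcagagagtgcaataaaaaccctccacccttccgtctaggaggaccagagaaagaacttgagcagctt
Tgfa: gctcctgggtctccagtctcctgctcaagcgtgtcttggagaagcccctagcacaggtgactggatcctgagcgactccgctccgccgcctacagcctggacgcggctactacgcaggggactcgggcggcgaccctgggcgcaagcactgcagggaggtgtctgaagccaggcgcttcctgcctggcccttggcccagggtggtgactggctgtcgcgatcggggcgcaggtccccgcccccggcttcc
The Epgn stretch holds 46.8% G and C and the Tgfa stretch 69.2%. RefSeq windows of 300 bases, from 250 before to 50 after the start, were at hand for 6 of the 10 genes (Areg, Btc, Egfr, Epgn, Erbb2 and Tgfa). None of the 6 held GACCACCCA, the core letters of the Gli motif, or TGANTCA, the AP-1 motif, or CTTTGNT, the Tcf/Lef motif, on either strand. Of all 32851 windows of that length, 0.253%, 7.81% and 18.6% held them. The absence says only that these letters are not in these windows.

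No receptor or ligand passed the test in any of the 8 comparisons between IFE groups, that is, none had an adjusted p under 0.05 over the 14286 genes tested. At 4 weeks, 3.24% of all genes passed against the controls, and 0 of the 9 members did. A fit that blocked on replicate number called 873 genes in place of 463, and still no member. The share over all genes was 0.700% at 10 weeks, 0.371% for β-catenin loss against control and 2.23% for β-catenin loss against SmoM2 alone. At 3 days, at 1 week, between 1 and 4 weeks and between 4 and 10 weeks, limma called 0 genes in all, with an unadjusted p under 0.05 for 1.55%, 4.74%, 4.82% and 6.25% of genes. A test for any difference among the 6 IFE groups called 1.13% of genes and no member, and the lowest adjusted p among the members was 0.184, for Egfr. An unadjusted p under 0.05 came up in 9 of the 72 member differences: Epgn at 1 and 4 weeks, Ereg at 4 and 10 weeks, Tgfa and Nrg1 at 10 weeks, Egfr in both comparisons of β-catenin loss, and Erbb3 in β-catenin loss against control. The 2 of Ereg say little, though they stay in the counts of members below. This dim gene passed the filter only through 1 array at 4 weeks, 1 at 10 weeks and the bulge SmoM2 array. Such a p was found for 2 of 9 members and 15.1% of all genes at 4 weeks, 3 of 9 and 10.6% at 10 weeks, 2 of 9 and 14.6% in β-catenin loss against control, and 1 of 9 and 17.2% against SmoM2 alone. In the test over groups it was found for Egfr alone and for 15.3% of all genes. The intervals in the plot of differences show what the arrays could resolve. For Egfr at 4 weeks the 95% interval ran from -0.58 to 1.02, and for Tgfa from -0.51 to 1.58, so a 2-fold change lay inside both. At 4 weeks the median difference of the 9 members, Ereg among them, was 0.23, against -0.05 over all genes tested. That median is a description only. The 4-week differences of Erbb2, Erbb3, Hbegf and Nrg1 each changed sign in at least 1 alternative fit.

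**Figure D1:**
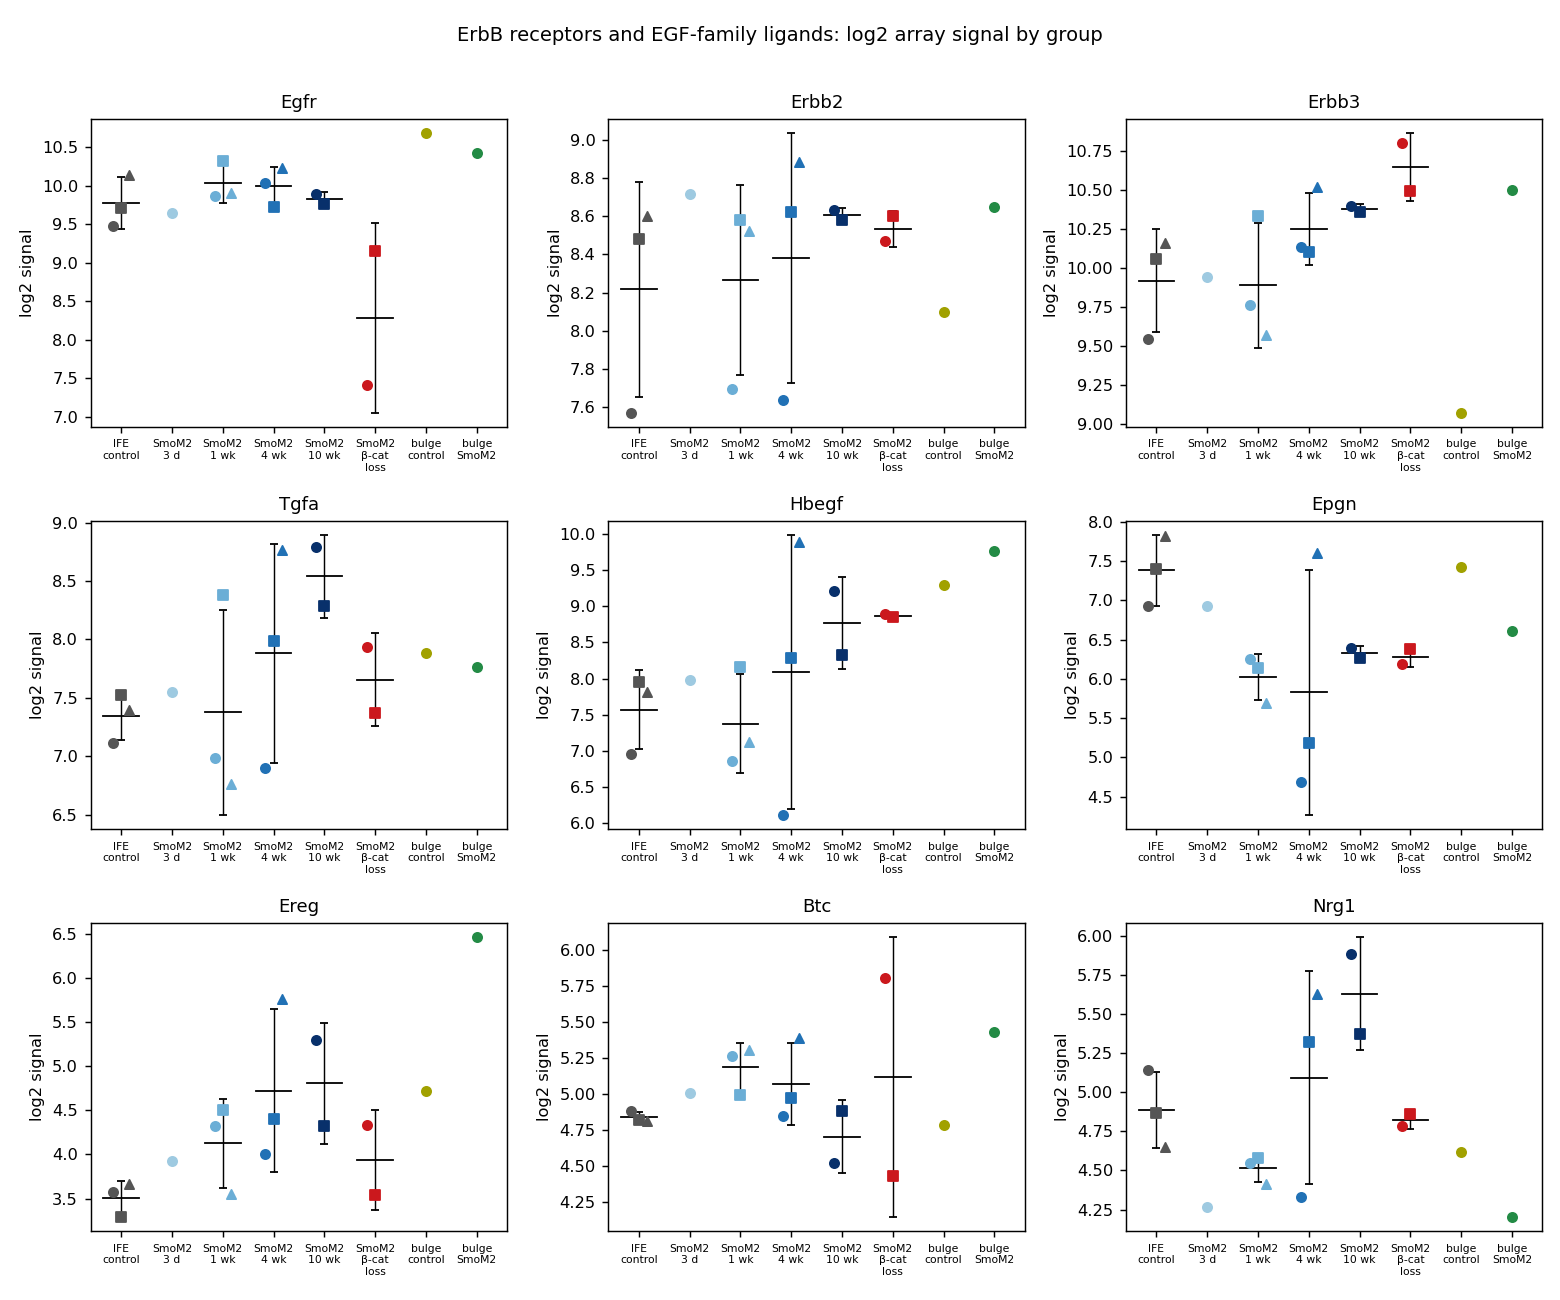
Log2 array signal (y axis, a scale of its own for each gene) of 9 genes in the 8 groups (x axis). Each point is 1 array, its shape the replicate number (circle 1, square 2, triangle 3), and bars give the mean and SD where a group has over 1 array. Egfr is low only in the β-catenin loss arrays (7.41 and 9.15), Epgn is spread from 4.69 to 7.61 at 4 weeks, and Ereg is highest in the bulge SmoM2 array (6.47).

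**Figure D2:**
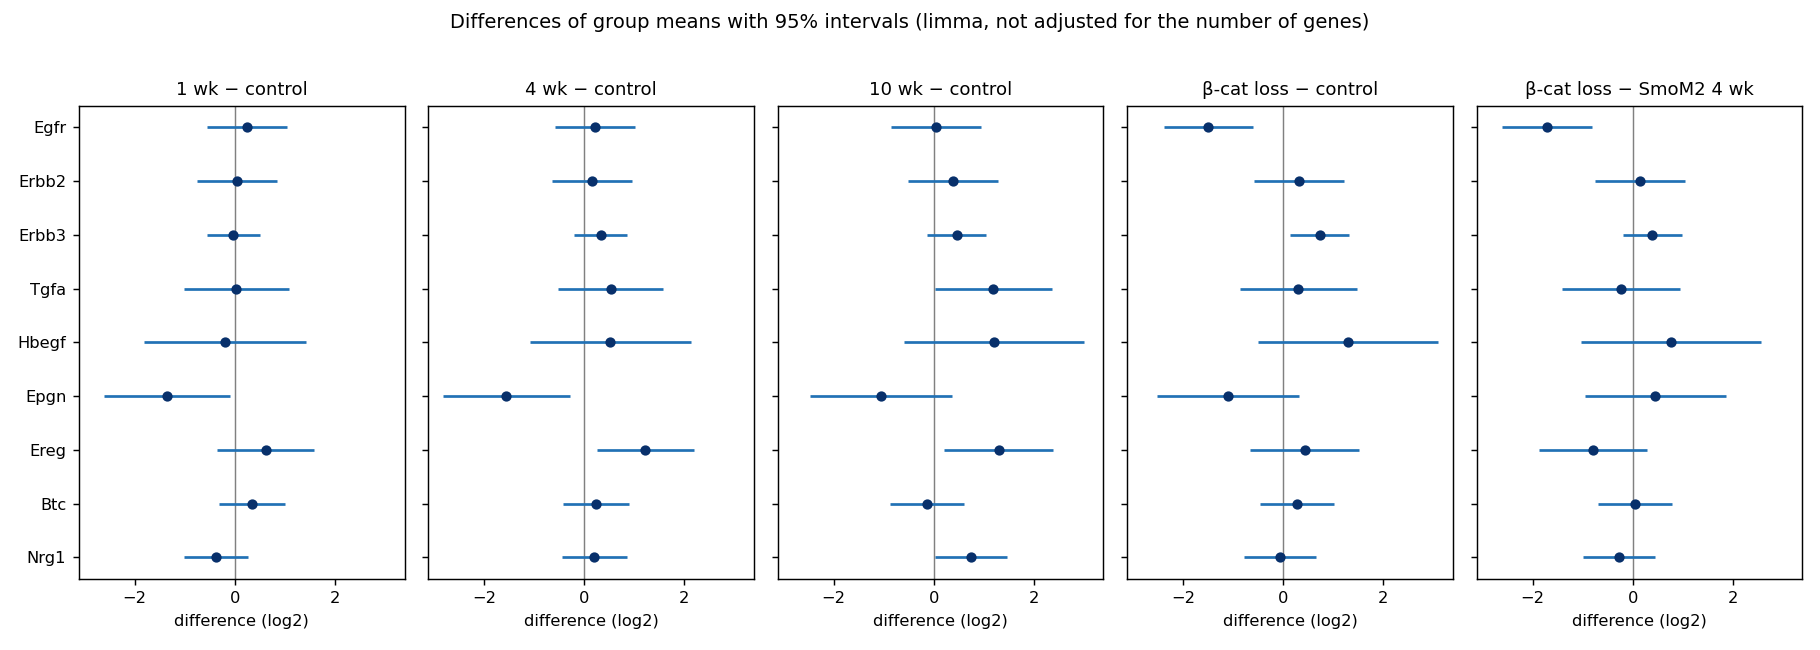
Difference of group means in log2 units (x axis) for each gene (y axis) with its 95% interval from limma, not adjusted for the number of genes, in 5 comparisons. Intervals that leave out 0 are those of Epgn at 1 and 4 weeks, Ereg at 4 and 10 weeks, Tgfa and Nrg1 at 10 weeks, Egfr in both β-catenin loss panels, and Erbb3 in β-catenin loss against control; none of them passed after adjustment.

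Egfr, the receptor for most of these ligands, stood within a narrow range under SmoM2 alone. Its signal was 9.48, 9.71 and 10.13 in the controls, 9.64 at 3 days, 9.87, 10.32 and 9.90 at 1 week, 10.04, 9.72 and 10.22 at 4 weeks, and 9.89 and 9.76 at 10 weeks. With β-catenin loss it was 7.41 and 9.15. Both of these arrays lay below every other array of the series, so the groups did not overlap, which was also true of 17.6% of all genes on the lower side against SmoM2 alone. Against control, the groups did not overlap for 4 of the 9 members and for 33.6% of all genes, in either direction. The difference was -1.71 ± 0.41 (SE) against SmoM2 alone at 4 weeks (adjusted p = 0.053) and -1.49 ± 0.41 against control (adjusted p = 0.133). Single arrays moved both values, and the spread for the 1 remaining β-catenin loss array was then borrowed from the other groups. Against SmoM2 alone the difference was -0.84 without β-catenin loss replicate 1 (adjusted p = 0.403) and -2.58 without replicate 2 (adjusted p = 0.0109). Against control it was -0.62 without replicate 1 (adjusted p = 0.519) and -2.36 without replicate 2 (adjusted p = 0.0266).

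The probe sets of Egfr disagreed on this point. The next brightest, 1424932_at, read 9.92 and 9.80 with β-catenin loss and 10.19, 10.09 and 9.39 with SmoM2 alone, a difference of -0.03 ± 0.25. Its Pearson correlation with the main probe set 1435888_at over the 14 IFE arrays was -0.30. The other 5 probe sets correlated with the main one at 0.31, -0.20, 0.10, -0.56 and 0.11. With the mean of all Egfr probe sets in place of the brightest, the difference against SmoM2 alone was -0.25 (adjusted p = 0.441). The low Egfr value thus rests on 1 probe set, and which transcript forms each probe set reads is not given in the files.

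**Figure D3:**
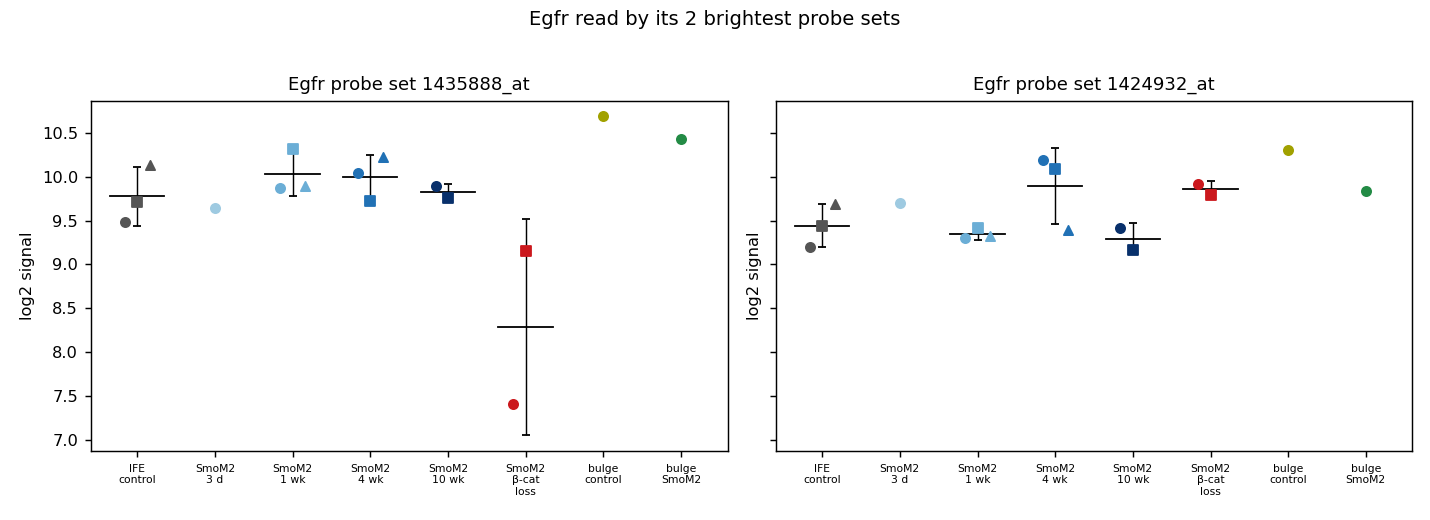
Log2 signal (y axis) of Egfr in the 8 groups (x axis) as read by its 2 brightest probe sets, on 1 shared scale. Points are arrays and bars the mean and SD; the β-catenin loss arrays stand at 7.41 and 9.15 on the left and at 9.92 and 9.80 on the right.

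Erbb3, the kinase-impaired partner that binds neuregulins, was 9.54, 10.06 and 10.16 in the controls and 10.80 and 10.50 with β-catenin loss. The β-catenin loss arrays were both above the controls, by 0.73 ± 0.27 on average (adjusted p = 0.241). At 10 weeks it was 10.40 and 10.36, again above all 3 controls, with a difference of 0.46 ± 0.27 (adjusted p = 0.655). At 4 weeks the values of 10.14, 10.10 and 10.52 overlapped the controls. Its second probe set, above the 40th percentile in 6 of the 16 arrays, did not follow the first (r = 0.02 over 14 arrays). It pointed the other way, with differences from control of -0.20 ± 0.21 with β-catenin loss, -0.34 ± 0.21 at 10 weeks and -0.49 ± 0.19 at 4 weeks (adjusted p = 0.652, 0.729 and 0.262). With the mean of both probe sets the β-catenin loss difference was 0.26 (adjusted p = 0.562). Erbb3 is also expressed in glia and pigment cells, and the list of 9 melanocyte genes was lower with β-catenin loss, with means of 5.34 and 5.32 against 6.90, 9.01 and 7.51 in the controls. Over the 14 IFE arrays Erbb3 and the melanocyte mean had a Pearson r of -0.45, and 0.25 after group means were taken out. The part of pigment cells in the Erbb3 values was not tested.

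Erbb2 split by replicate number rather than by group. Replicate 1 had 7.57 in the controls, 7.69 at 1 week and 7.64 at 4 weeks, replicate 2 had 8.48, 8.58 and 8.62, and replicate 3 had 8.60, 8.52 and 8.88. The means by number were 7.63 ± 0.06, 8.56 ± 0.07 and 8.67 ± 0.19 (SD, n = 3 each), and no value of replicate 1 overlapped the others. In a limma fit over these 9 arrays, with group in the model, the replicate number passed for Erbb2 (F = 42.5, adjusted p = 0.00566), a test chosen after these values were seen. The replicate number passed for 33.3% of all genes in that fit and for 1 of the 9 members, so Erbb2 shares this pattern with a large part of the array. Within numbers, the 4-week array was above its control by 0.07, 0.14 and 0.28, and the 1-week array differed from its control by 0.12, 0.10 and -0.08. The description labels give the same numbers as experiments, and what was shared within an experiment is not stated. Outside these groups, Erbb2 was 8.72 at 3 days, 8.63 and 8.58 at 10 weeks, and 8.47 and 8.60 with β-catenin loss.

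**Figure D4:**
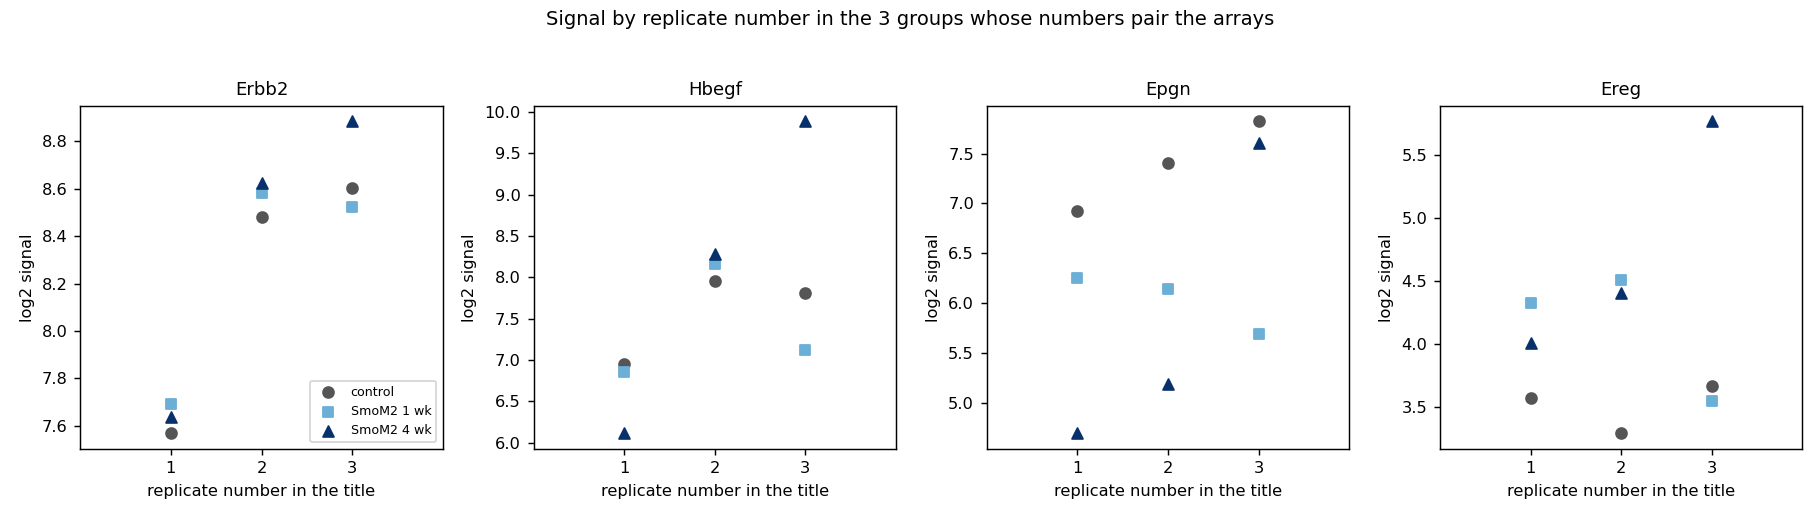
Log2 signal (y axis) of 4 genes by the replicate number in the title (x axis) in controls, SmoM2 at 1 week and SmoM2 at 4 weeks, 1 point an array. Erbb2 lies between 7.57 and 7.69 in the 3 arrays numbered 1 and between 8.48 and 8.88 in the other 6, whatever the group; Epgn lies below its same-numbered control in all 6 SmoM2 arrays.

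Epgn, epithelial mitogen, was the ligand with the largest negative difference from control at 1, 4 and 10 weeks of SmoM2, while at 3 days that was Nrg1 (-0.62 against -0.46 for Epgn). It was 6.92, 7.40 and 7.82 in the controls, 6.93 at 3 days, and 6.25, 6.14 and 5.69 at 1 week. At 4 weeks it was 4.69, 5.18 and 7.61, and at 10 weeks 6.39 and 6.27. All arrays at 1 and 10 weeks lay below all controls, whereas at 4 weeks replicate 3 overlapped them. The difference from control was -1.36 ± 0.58 at 1 week (adjusted p = 0.96), -1.55 ± 0.58 at 4 weeks (adjusted p = 0.207) and -1.05 ± 0.64 at 10 weeks (adjusted p = 0.681). At 1 week, groups that did not overlap on the lower side were found for 2.84% of all genes, and at 10 weeks for 20.5%. Against the same-numbered control, Epgn was lower in 3 of 3 pairs at 1 week, with differences of -0.67, -1.26 and -2.13, and in 3 of 3 pairs at 4 weeks, with -2.23, -2.22 and -0.22. With β-catenin loss it was 6.19 and 6.38, below all controls and inside the range of SmoM2 alone at 4 weeks.

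Single arrays moved the Epgn result at 4 weeks. Without replicate 3 the difference was -2.44 and passed (adjusted p = 0.00841), and without replicate 1 it was -0.99 (adjusted p = 0.453). Replicate 3 also stood apart in differentiation genes: the mean of 8 suprabasal keratinocyte genes was 10.08 in it against 8.42 and 8.68 in replicates 1 and 2, and 10.07 to 10.32 in the controls. Across the 14 IFE arrays Epgn and this list mean had a Pearson r of 0.74, and 0.82 after the group means were taken out. Over the 9 control, 1-week and 4-week arrays it was 0.87 with group and replicate number both taken out. Without the 2 of the 14 IFE arrays farthest from the median of the list mean, r of Epgn was 0.38. The link in the 9 arrays was not particular to Epgn. With group and number taken out there, r with this list was 0.93 for Btc, 0.86 for Hbegf, 0.78 for Erbb2 and 0.77 for Nrg1. It was 0.73 for Ereg, 0.605 for Tgfa, 0.21 for Erbb3 and -0.12 for Egfr. These arrays share amplification and normalization, and the correlation is a description. Of the 8 suprabasal genes, Krt2 and Tgm3 fell at 4 weeks (-3.83 and -3.37, adjusted p = 0.0349 and 0.0101), 6 did not pass, and the part of suprabasal cells in the Epgn values was not tested. In sorted cells, fewer cells of a type and less RNA per cell cannot be told apart.

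Ereg, epiregulin, was dim: in 3 of the 16 arrays it exceeded the 40th percentile of all probe sets, so most of its values lie near the bottom of the scale. The controls read 3.57, 3.29 and 3.66. Values at 4 weeks were 4.01, 4.40 and 5.77, and at 10 weeks 5.29 and 4.32. All 5 of these arrays were above all 3 controls, a separation that 9.17% of all genes showed on the higher side at 4 weeks and 16.8% at 10 weeks. Of the 14 IFE arrays, only 4-week replicate 3 and 10-week replicate 1 were above the 40th percentile, so Ereg entered the test through groups in which it is high, and the controls lay between the 3.4 and 9.2 percentiles of their arrays. The separation is therefore tied to the filter and is not read as a result, and no size of difference is given. The adjusted p in limma was 0.195 at 4 weeks and 0.318 at 10 weeks. At 1 week Ereg was 4.32, 4.51 and 3.55, which overlapped the controls. With β-catenin loss it was 4.34 and 3.54, the first inside the range of SmoM2 alone at 4 weeks and the second inside that of the controls.

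Tgfa, the classic autocrine ligand of keratinocytes, was 7.12, 7.53 and 7.40 in the controls. The single 3-day array, at 7.55, was just above the highest of them. It was 6.99, 8.38 and 6.76 at 1 week, 6.90, 7.99 and 8.76 at 4 weeks, and 8.79 and 8.29 at 10 weeks. Both 10-week arrays were above all controls, whereas those at 1 and 4 weeks overlapped them, and the 10-week difference was 1.19 ± 0.54 (adjusted p = 0.456). It passed when only the controls and the 10-week arrays were fitted (1.19, adjusted p = 0.0342) and with array weights (1.19, adjusted p = 0.0425), but with the mean of its 3 probe sets it was 0.33 (adjusted p = 0.822). The next brightest probe set, 1421942_s_at, gave -0.17 ± 0.31 and correlated with the main one at 0.22. With β-catenin loss Tgfa was 7.94 and 7.37, overlapping both controls and SmoM2 alone.

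Hbegf, a ligand that binds both Egfr and Erbb4, varied more among IFE arrays than 96% of the genes tested (SD 1.02 against a median of 0.34). It was 6.95, 7.95 and 7.81 in the controls, 6.85, 8.16 and 7.12 at 1 week, and 6.11, 8.29 and 9.89 at 4 weeks. The 4-week group held both the lowest and the highest Hbegf signal of all 16 arrays. At 10 weeks it was 9.22 and 8.32 and with β-catenin loss 8.89 and 8.85, all above the controls, with differences of 1.20 ± 0.82 (adjusted p = 0.738) and 1.30 ± 0.82 (adjusted p = 0.487). Its 2 probe sets moved together (r = 0.93 over 14 arrays), so the spread does not rest on 1 probe set.

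Nrg1, neuregulin 1, a ligand of Erbb3 and Erbb4, was dim and above the 40th percentile in 5 of the 16 arrays. It was 5.14, 4.87 and 4.65 in the controls, 4.55, 4.58 and 4.41 at 1 week, 4.33, 5.32 and 5.63 at 4 weeks, and 5.89 and 5.37 at 10 weeks. The 1-week arrays lay below all controls and the 10-week arrays above them, by -0.37 ± 0.30 (adjusted p = 1) and 0.74 ± 0.33 (adjusted p = 0.445). In the 1-week comparison with controls, separation on the lower side was found for Epgn and Nrg1 and on the higher side for Btc, where 4.63% of all genes had it. Btc, betacellulin, was above the 40th percentile in 6 of the 16 arrays. It read 4.88, 4.82 and 4.81 in the controls and 5.26, 4.99 and 5.30 at 1 week (limma, adjusted p = 1). All 3 controls lay below the 40th percentile. Among the arrays through which Btc passed the filter were 1-week replicates 1 and 3. Its separation at 1 week is thus tied in part to the filter, and no size of difference is given. The β-catenin loss arrays of Btc, at 5.81 and 4.43, were its highest and lowest of the series.

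Hbegf, Tgfa, Nrg1 and Erbb2 moved with immediate-early genes, which rise within minutes of a growth factor or of cell dissociation. The mean of 23 such genes was 9.53, 9.93 and 9.61 in the controls, 9.33, 10.43 and 9.42 at 1 week, 9.30, 11.15 and 10.75 at 4 weeks, 10.82 and 10.17 at 10 weeks, and 9.56 and 9.86 with β-catenin loss. At 4 weeks, 20 of these 23 genes were above control, with a median difference of 0.65 against -0.05 over all genes, and none passed (lowest adjusted p = 0.0693, Egr3). Over the 14 IFE arrays the Pearson r with this mean was 0.83 for Tgfa, 0.76 for Nrg1, 0.69 for Hbegf, 0.65 for Ereg and 0.59 for Erbb2. After group means were taken out it was 0.81, 0.75, 0.81, 0.46 and 0.70. Over the 14 arrays, Egfr (0.25), Btc (-0.19) and Epgn (0.01) showed little of it, and Erbb3 had 0.41. Replicate number was also taken out in the 9 control, 1-week and 4-week arrays. There r was 0.76 for Tgfa, 0.91 for Nrg1, 0.82 for Hbegf, 0.72 for Erbb2 and 0.78 for Ereg. It was 0.615 for Epgn and 0.59 for Btc, so these 2 were not set apart in that measure, and 0.09 for Erbb3 and -0.11 for Egfr. The 4-week array with the lowest mean, replicate 1, also had the lowest Hbegf, Tgfa and Nrg1 of its group, but the highest values of all 3 were in replicate 3 and not in replicate 2, whose mean was highest. The part of cell dissociation in these ligand values was not tested.

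**Figure D5:**
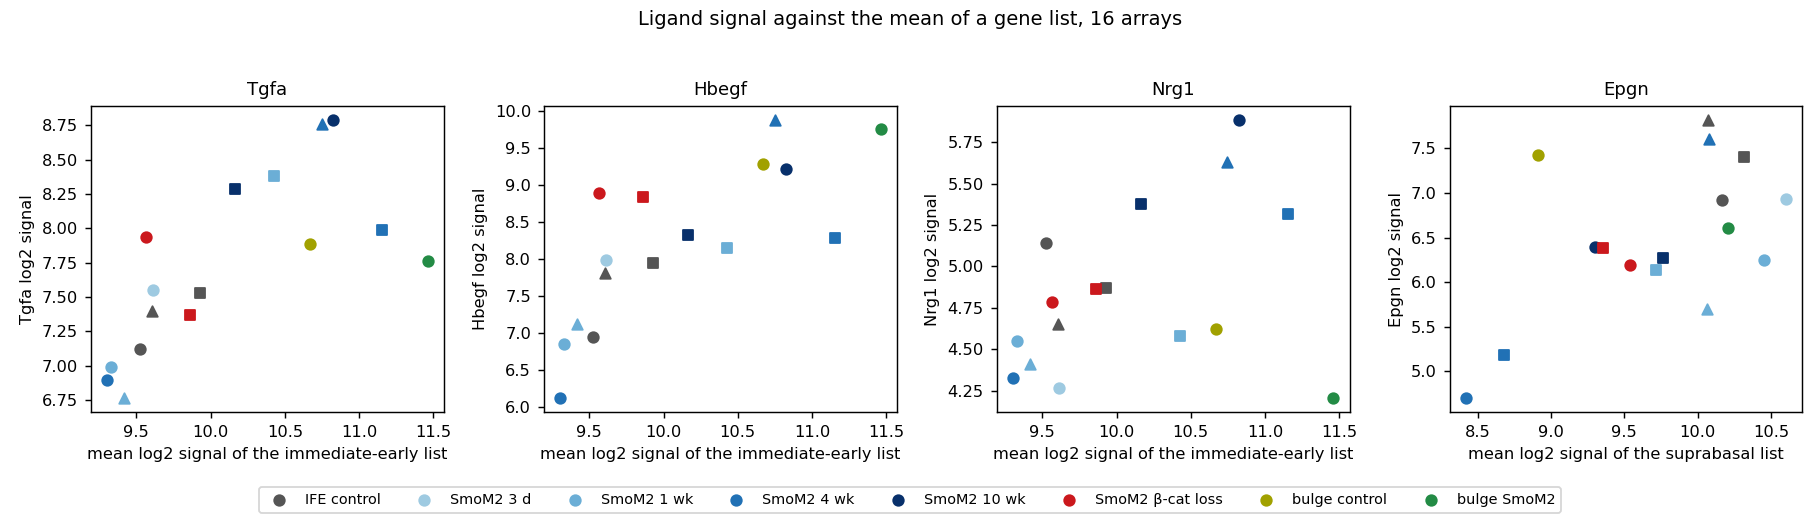
Log2 signal of Tgfa, Hbegf and Nrg1 (y axes) against the mean log2 signal of 23 immediate-early genes, and of Epgn against that of 8 suprabasal genes (x axes), 1 point an array, coloured by group, in all 16 arrays. Over the 14 IFE arrays r was 0.83, 0.69, 0.76 and 0.74; the bulge arrays were not used for r.

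Some members moved with each other within these arrays and others did not, with r down to -0.44 for Egfr with Btc. Hbegf and Tgfa had the highest r of the 36 pairs, 0.84 over 14 arrays and 0.77 without the 2 farthest arrays. Next came Hbegf with Erbb2 (0.80) and Ereg with Tgfa (0.80, falling to 0.59 without the 2 farthest). These r also hold what arrays of 1 replicate number share, which showed in 33.3% of all genes. An alternative chosen after the data were seen took out both group and number in the 9 control, 1-week and 4-week arrays. There r was 0.91 for Hbegf with Tgfa and 0.94 for Hbegf with Erbb2. Over the 36 pairs it then ran from -0.46 (Egfr with Btc) to 0.98 (Ereg with Tgfa). Among all genes tested, the closest to Hbegf were Megf11, Cebpb and Ccnl1 (0.92, 0.89 and 0.89), and to Tgfa Neu2, Fosl1 and Rnf225 (0.90, 0.90 and 0.88). Those closest to Ereg were Aldh1a3, Rptn and Teddm3 (0.90, 0.88 and 0.85), to Nrg1 Gpx2, Uox and Dnmt3l (0.86 each), and to Epgn Ets1, Dleu2 and Rpl7a (0.83, 0.80 and 0.79). Erbb2 was followed by Ppp4r3a, Arf5 and Hnrnpl (0.98, 0.97 and 0.97, or 0.96, 0.66 and 0.74 in those 9 arrays with group and number taken out), Erbb3 by Baz2a, Casz1 and Sun1 (0.91, 0.90 and 0.90), and Btc by H3c4, Klk7 and Slc46a2 (0.85, 0.82 and 0.82). The nearest to Egfr were Moxd1, Ash2l and Hsp90b1 (0.93, 0.91 and 0.91), but without the 2 farthest arrays the first fell to 0.37.

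The bulge had 1 array a group and so no test. Ereg read 4.72 in the bulge control, below the 40th percentile of its array, and 6.47 in the bulge SmoM2 array, its highest value in the series. The bulge SmoM2 array is 1 of the 3 arrays through which Ereg passed the filter, so no size of difference is given. Erbb3 read 9.07 in the bulge control, its lowest value in the series, and 10.50 with SmoM2, a difference of 1.43. Ereg and Erbb3 were the only 2 of the 9 members past 1 log2 unit, and 4.35% of all genes were that much higher. This count includes Ereg, which passed the filter only through arrays in which it is high. With the mean of probe sets, Erbb3 differed by less than 1 log2 unit and Ereg alone remained past it. Epgn went from 7.43 to 6.60, Egfr from 10.69 to 10.43, Hbegf from 9.29 to 9.77, and Nrg1 from 4.62 to 4.20. With 1 array in each bulge group, no test of the SmoM2 difference in the bulge against that in the IFE is given.

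Between the untreated cell types, Hbegf was 1.72 higher in the bulge control than in the mean of the IFE controls, and 7.24% of all genes were at least 1 log2 unit higher. Ereg also read higher, at 4.72, but lay below the 40th percentile in all 4 of these arrays, so no size is given. Against the mean of the IFE SmoM2 arrays at 4 weeks, which avoids the bulge control, the bulge SmoM2 array was higher by 1.67 in Hbegf. Its value of 9.77 lay inside the range of those arrays, which read 6.11, 8.29 and 9.89. In that comparison 4.04% of all genes were at least 1 log2 unit higher. The Hbegf difference stood at the 98.7 percentile of all genes. Ereg read higher too, at 6.47, but was above the 40th percentile in only 1 of the 3 IFE arrays, so no size is given. The immediate-early mean was 10.67 and 11.46 in the bulge arrays, above all 3 IFE controls. In the IFE SmoM2 arrays at 4 weeks it was 9.30, 11.15 and 10.75. Nrg1 differed by -0.89 in the same comparison.

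Put in order of group mean, most neighbouring groups lay closer than the SD within groups. For Egfr the exception, on its main probe set, was the step from β-catenin loss to the next group (1.36 against an SD of 0.50). For Erbb3 the exceptions were from the bulge control to the next (0.82 against 0.29) and from 3 days to 4 weeks (0.31 against 0.29). These steps each start from a group of 1 array. For Nrg1 the exception was the step from 4 weeks to 10 weeks (0.54 against 0.39), which did not pass in limma (adjusted p = 0.839). Ereg stepped up from 10 weeks to the bulge SmoM2 array, but no size is given, since 10-week replicate 2 lay below the 40th percentile. Erbb2, Btc, Hbegf, Tgfa and Epgn had no such step, so the order of their group means is not resolved. A step past the SD is not a test and does not by itself resolve the order in the other genes. For Epgn the order ran from SmoM2 at 4 weeks (5.83) and 1 week (6.03) up to the IFE control (7.38) and the bulge control (7.43).

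Of the other genes listed with the family, 3 of 6 were bright enough to test. Erbb4, the fourth receptor, stood at 3.09 to 3.40 and Nrg3 at 3.33 to 3.95, above the 40th percentile in 0 of 16 arrays. Tdgf1, an EGF-like signalling protein, was too dim to test as well. Egf, Nrg2 and Nrg4 did not pass in any comparison. Nrg4, an Erbb4 ligand, came closest, at 5.09 and 5.53 after 10 weeks against 6.74, 6.29 and 6.56 in the controls (-1.22 ± 0.29, adjusted p = 0.0858).

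Of 9 genes that release or mature the ligands, 1 passed in 1 comparison, β-catenin loss against SmoM2 alone, where 2.23% of all genes passed. Adam10, the protease known to shed betacellulin, was 9.50 and 10.23 with β-catenin loss and 10.79, 10.95 and 11.17 with SmoM2 alone. It fell by 1.10 (SE 0.25, adjusted p = 0.045), but with the mean of its probe sets the difference was -0.18 (adjusted p = 0.811), and without any 1 of the 5 arrays but β-catenin loss replicate 2 the call was lost (adjusted p up to 0.389). Adam17, the main protease for Tgfa and Hbegf, did not pass in any comparison and ranged from 8.34 to 9.57. Timp3, an inhibitor of Adam17, was the lowest by p of this list at 4 weeks, 1.47 ± 0.40 above control (adjusted p = 0.0741).

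Among 18 feedback inhibitors, 1 rose at 4 weeks, 1 with β-catenin loss against control, and 2 with β-catenin loss against SmoM2 alone. None fell. Over all genes 3.24%, 0.371% and 2.23% passed in these comparisons, in either direction. Errfi1, which binds ErbB kinase domains and shuts them down, was 12.05 and 10.86 with β-catenin loss and 9.55, 9.28 and 9.28 with SmoM2 alone, a rise of 2.08 ± 0.37 (adjusted p = 0.0235). Both values exceeded those of all other arrays, the highest of which was 10.07 in control replicate 2. Spry2, an inhibitor of Ras-ERK signalling, was 9.94 and 9.52 against 8.28, 8.84 and 8.34 (1.24 ± 0.26, adjusted p = 0.0385), and it also rose against control (1.51 ± 0.26, adjusted p = 0.039). The arrays with the highest Errfi1 and Spry2 were those with the lowest Egfr signal on its main probe set. The next brightest Egfr probe set read 9.92 and 9.80 in these arrays, and a link between these genes was not tested. The call for Errfi1 was lost without replicate 1 of β-catenin loss (1.49, adjusted p = 0.24) and kept without any other single array. Spry2 lost its call against control without any 1 of the 5 arrays (adjusted p from 0.0563 to 0.281), and against SmoM2 alone it kept it only without 4-week replicate 2 (adjusted p otherwise up to 0.334). The median of the 18 genes in β-catenin loss against SmoM2 alone was 0.03, against -0.09 over all genes. Socs5, which promotes loss of Egfr protein, was 9.55, 9.21 and 9.30 at 4 weeks and 8.70, 7.78 and 8.23 in the controls (1.12 ± 0.27, adjusted p = 0.0485). That call was lost without any 1 of the 3 controls or the 3 SmoM2 arrays, with adjusted p up to 0.181.

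Of 18 relay genes tested, 2 rose at 4 weeks, when 3.24% of all genes passed in either direction, and none fell in any comparison. Gab1, a docking protein that carries the ErbB signal to PI3K and Shp2, was 9.20, 8.90 and 8.96 in the controls, 10.30, 10.22 and 9.23 at 1 week, and 11.31, 10.67 and 9.81 at 4 weeks. The 4-week arrays were all above the controls, by 1.58 ± 0.36 (adjusted p = 0.037), and with β-catenin loss Gab1 was 9.16 and 9.21, a difference of -1.41 ± 0.40 from SmoM2 alone that did not pass (adjusted p = 0.0888). Plcg1, phospholipase C gamma 1, was 10.54, 10.60 and 9.98 at 4 weeks against 9.58, 9.55 and 9.42 (0.86 ± 0.20, adjusted p = 0.04), but 0.19 with the mean of its probe sets (adjusted p = 0.639). Without any 1 control, or without 4-week replicate 1 or 2, both calls were lost, at adjusted p up to 0.132 for Gab1 and 0.141 for Plcg1.

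Of 15 genes known to respond to ERK, 1 rose at 4 weeks, when 3.24% of all genes passed in either direction. Hmga2, a chromatin protein, was 4.82, 5.11 and 5.06 in the controls, 7.95, 8.04 and 6.74 at 4 weeks, 7.18 and 7.22 at 10 weeks, and 5.19 and 5.77 with β-catenin loss. It rose by 2.58 ± 0.41 at 4 weeks (adjusted p = 0.0117) and fell by 2.10 (SE 0.46) with β-catenin loss compared with SmoM2 alone (adjusted p = 0.0427). The call at 4 weeks was lost without control replicate 2 or 3 (adjusted p = 0.0541 and 0.0556), and that with β-catenin loss without any 1 of the 5 arrays but 4-week replicate 3 (adjusted p up to 0.351). At 10 weeks 0 of the 15 passed, with Hmga2 at adjusted p = 0.0573, although 12 of the 15 were above control with a median of 0.63 against -0.06 over all genes. In β-catenin loss against SmoM2 alone, Spry2, which is also in this list, rose and Hmga2 fell, while 2.23% of all genes passed. The comparisons at 1, 4 and 10 weeks share the 3 control arrays, and both comparisons of β-catenin loss share its 2 arrays.

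Other cells were read from their markers beside these results. The melanocyte list was highest in control replicate 2 (9.01) and between 5.32 and 7.83 in the other 15 arrays. Of 8 bulge and outer root sheath genes, Lgr5, Lhx2 and Tcf7l1 rose at 4 weeks, and Dcn, a fibroblast gene, rose too (2.59, adjusted p = 0.043). In β-catenin loss against SmoM2 alone, Errfi1, Spry2, Hmga2 and Adam10 passed, Adam10 not with the mean of its probe sets, and Egfr did not pass. In that comparison 6 of 7 sebaceous gland genes were higher (median 1.59 against -0.09 over all genes). Their list means were 10.10 and 9.57 against 9.07, 7.65 and 9.06. All 8 dermal fibroblast genes were lower there (median -0.97), with means of 4.93 and 5.41 against 6.68, 5.94 and 6.34, and so were all 6 leukocyte genes tested (median -0.61), with means of 4.64 and 5.99 against 5.10, 5.71 and 6.49 over 8 genes. None of the sebaceous gland, fibroblast or leukocyte genes passed in that comparison (limma, lowest adjusted p = 0.0533, Elovl3). The mean of the Y-linked genes ranged from 3.34 to 8.41 across the arrays, so the sex of the mice was not balanced. The part of these cells and of sex in the ligand values was not tested, and the model with Y-linked signal as a covariate called no member in any comparison.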

How the data were processed

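The authors deposited log2 signals of 45101 probe sets in 16 arrays (medians 5.38 to 5.53). Log2 is read from their range, R 2.14.0 is the tool in the submitters' processing notes, and how background was corrected and arrays normalized is not given in the sources used. RNA was amplified with a 3′ in vitro transcription kit, per the labels' protocols. Probe sets with 1 annotated gene (34958) gave 18194 genes, each read from its brightest probe set. The 14286 genes above the 40th percentile in at least 2 arrays entered a linear model of group means (limma 3.58.1, R 4.3.3) on the 14 IFE arrays, with Benjamini-Hochberg adjustment over all of them (threshold 0.05), a step tested on simulated data. All members were named, with up to 4 list genes past the threshold per comparison, or else the one of lowest adjusted p, and the 3 genes closest by Pearson r. Members, lists and rules were chosen with earlier results of these data known. Same-numbered control, 1-week and 4-week arrays deviated together (r from 0.34 to 0.70 in 9 of 9 pairs), so the numbers pair them, and those of the other groups do not. The planned comparison of protein sequences was not run. The number of arrays limits the precision.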

Additional observations from a re-analysis of the deposited data

How the results depend on the processing

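The alternatives did not swap 1 probe set of a gene for another. Under them, no member difference with an unadjusted p under 0.05 (9 of 72) changed sign. Of the 72, 31 did under at least 1, the largest of them 0.77. Differences near 0 change sign most easily, so this contrast says little. Read from other probe sets, signs did change among the 9. In β-catenin loss against control, Egfr 1424932_at gave 0.42 and Erbb3 1452482_at -0.20. At 10 weeks Tgfa 1421942_s_at gave -0.17. The count of members past the threshold was 0 in every comparison and became 1 in these fits: at 4 weeks without replicate 3 (Epgn), at 10 weeks with array weights or only the groups compared (Tgfa), for β-catenin loss against control without its replicate 2 (Egfr), and for β-catenin loss against SmoM2 alone with quantile normalization (Egfr -1.74, adjusted p = 0.046), with either replicate block, or without replicate 2. The block by title number gave Egfr -1.64 there (adjusted p = 0.0354), although β-catenin loss and 4-week arrays of 1 number did not deviate together (r = -0.051 and -0.18). In the test over the 6 IFE groups it was 1 with array weights (Nrg1, adjusted p = 0.0297), without 4-week replicate 3 (Epgn, adjusted p = 0.0369) and without β-catenin loss replicate 2 (Egfr, adjusted p = 0.0443). Leaving out single arrays gave 0 to 1 members in these comparisons and 0 in the others. In the bulge, 1 member in place of 2 passed 1 log2 unit with the mean of probe sets. The replicate block changed no other member's call; the block by title number gave 873, 163, 169, 1347 and 767 genes in place of 463, 100, 53, 318 and 162 at 4 weeks, 10 weeks, β-catenin loss against control, against SmoM2 alone and in the test over groups. Over all alternatives these counts ran from 13 to 955, 0 to 1545, 1 to 169, 2 to 1347 and 0 to 1648, and those at 1 week, 3 days, 4 weeks against 1 week and 10 weeks against 4 weeks reached 50, 1, 24 and 14. The cause was not tested. Ereg, Nrg1 and Btc lie near the bottom of the signal scale in most arrays, which limits what can be resolved for them.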
